A study of Mus musculus with 23 samples.

Results

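Induced myeloid progenitors, in which RUNX1-ETO had been expressed for 12 h, were compared with the uninduced CD41+KIT+Tie2− progenitors that precede them in culture, to ask whether induction brought the cells back to the earlier state. The comparison rests on 3 arrays of induced myeloid progenitors and 2 of uninduced progenitors, with 1 additional array of uninduced progenitors set apart, of the 23 arrays of the study. All genes with a RefSeq name were considered, and 15202 passed the filter on dim genes, which asked for a log2 level of 6.5 or more on any array. The 3 arrays of uninduced myeloid progenitors, the same cells without Dox, were used to separate the difference into the step from progenitors to myeloid progenitors and the step with Dox.

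All cells came from mouse embryonic stem cells of the A2lox line, labelled as strain C57BL/6, with wild-type Runx1 and a human HA-tagged RUNX1-ETO transgene behind a tetracycline-responsive promoter, and the uninduced cells carry it as well. Uninduced progenitors were sorted from blast culture on day 2 without doxycycline (Dox). Myeloid progenitors were grown from floating progenitors in an expansion medium with cytokines and harvested on day 3, either without Dox or after 12 h with Dox at 0.1 μg per ml, added on day 2. No array of cells treated with Dox but lacking the transgene was analysed here, so that Dox and RUNX1-ETO cannot be told apart. The additional uninduced progenitor array is a technical replicate by its title and replicate 3 by its description, and induced myeloid array 3 is a biological replicate by its title and a technical replicate by its description. Progenitor array 1 was on slide 1 and array 2 on slide 2, whereas the additional array and all myeloid progenitor arrays were on slide 3, scanned on another day. The difference between the stages was therefore measured in another way as well, against the additional array on the same slide. Of all spots, 56.7 to 65.0% were well above background on the induced myeloid arrays, 51.2 to 63.6% on the uninduced myeloid arrays, 67.5 and 71.0% on the progenitor arrays and 54.7% on the additional array, and no spot was saturated.

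RUNX1 is the transcription factor that drives endothelial cells of the embryo to become blood cells. RUNX1-ETO joins its DNA-binding domain to the co-repressor ETO and is found in acute myeloid leukaemia. During normal blood formation, haemogenic endothelium loses endothelial genes, passes through multipotent progenitors that express KIT and CD41, and then commits to lineages such as erythroid, megakaryocytic and myeloid cells.

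The induced myeloid arrays lay further from uninduced progenitors than the uninduced myeloid arrays did. Their Euclidean distance from the additional array, over the log2 levels of 15095 genes measured on all these arrays, was 123, 122 and 128, compared with 106, 109 and 106 for the uninduced myeloid arrays. Every induced array was thus further away than every uninduced one, on a single slide. The mean distance was 124 ± 3.30 (SD, n = 3) with Dox and 107.2 ± 1.88 (SD, n = 3) without, a difference of 17.0. The two-sided P of an exact permutation test was 0.1, which is the lowest value that 3 against 3 arrays can reach. Against the mean of progenitor arrays 1 and 2, the induced arrays were at 133, 129 and 137 and the uninduced arrays at 118, 122 and 119, again without overlap. As a description across genes, the Pearson correlation with the additional array was 0.940 to 0.946 for induced and 0.957 to 0.959 for uninduced myeloid arrays.

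When each myeloid array was placed on a line from uninduced progenitors (0) to uninduced myeloid progenitors (1), induced arrays overlapped with uninduced ones along it and lay further off it. The induced arrays lay at 0.868, 0.872 and 0.947 along this line and the uninduced arrays, each placed on a line drawn without it, at 0.920, 0.994 and 0.955. The groups overlapped, and the difference of -0.06 was not larger than could be told from 3 arrays each (P = 0.2, two-sided exact permutation test). In contrast, the distance off the line was 86.1, 79.0 and 80.0 for induced and 46.7, 40.3 and 39.3 for uninduced arrays, with means of 81.7 ± 3.83 and 42.1 ± 3.99 (SD, n = 3 each). These did not overlap, and with the additional array as the start of the line they were 81.8 ± 3.58 and 42.0 ± 3.88. The line ends at the uninduced myeloid arrays, so that an uninduced array lies off it by the spread between arrays alone. Any group that differs from them other than along the line lies further off, so that this distance is given with no test.

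**Figure D1:**
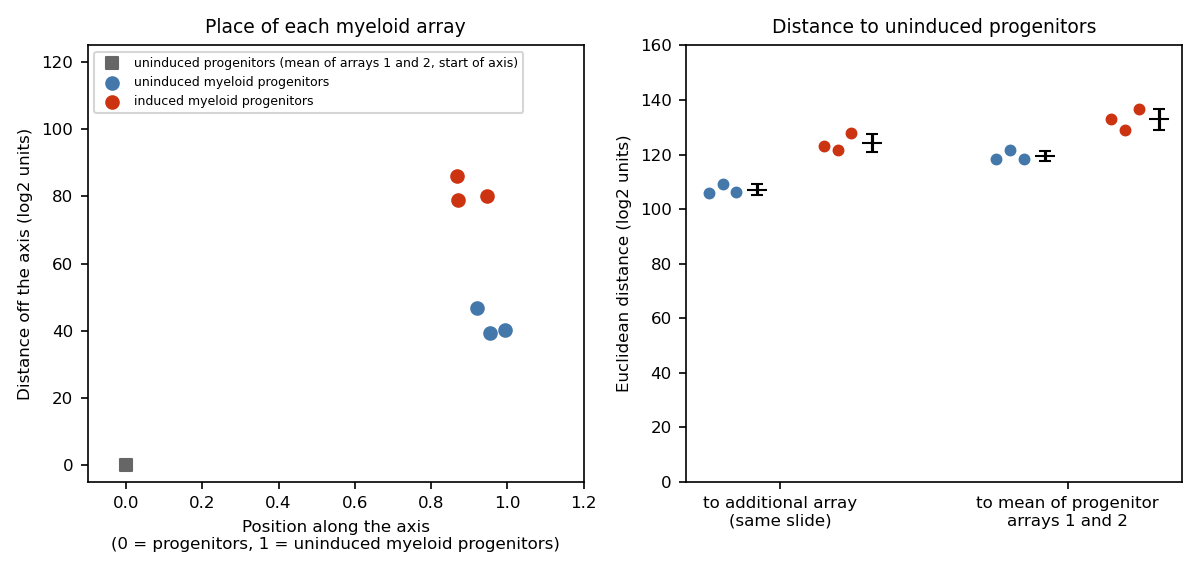
Left, the position of each myeloid progenitor array along the line from uninduced progenitors to uninduced myeloid progenitors (x axis, no unit) and its distance off this line (y axis, log2 units over 15095 genes). Right, the Euclidean distance of each array from the additional progenitor array and from the mean of progenitor arrays 1 and 2, with bars for the mean and SD of 3 arrays. The 3 induced arrays lie at 0.868 to 0.947 along the line, overlapping with the 3 uninduced ones at 0.920 to 0.994, and at 79.0 to 86.1 off it.

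In the comparison of induced myeloid progenitors with progenitors, 1564 genes were higher (10.3% of the 15202 tested) and 1256 lower (8.26%). A call needed a 2-fold change together with an unadjusted P value from limma no higher than the threshold of 0.001. The adjusted P values of the called genes from limma reached 0.00451. The median log2 difference over all genes was -0.09. With each array scaled to its 75th percentile in place of quantile normalization, the median was -0.35 and the split turned to 1109 higher and 1895 lower, so that the balance of rises and falls depends on the scaling. By comparison, uninduced myeloid progenitors had 1064 genes higher (7%) and 1054 lower (6.93%) than progenitors, and with Dox 780 rose (5.13%) and 180 fell (1.18%) in myeloid progenitors. The 3 comparisons share arrays, and the difference of induced cells from progenitors is the sum of the other two.

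The comparison on the same slide sets 3 arrays against 1, and the lone array is assumed to vary like the other groups, since its own spread is not known. Against the additional array, 1150 genes were higher (7.56%) and 469 lower (3.09%), and 1041 of the 1564 higher and 391 of the 1256 lower genes passed again. The difference kept its direction for 1546 of the higher and 1250 of the lower genes. With the slide as a block, where slide 3 is tied to the others by the pair of induced progenitor arrays alone, 565 genes were higher and 192 lower, of which 511 and 108 were among those above, and 1508 and 1248 kept their direction. The median SE of a difference was 0.276 without the block, 0.483 with it and 0.349 against the additional array. For the main genes named below, a difference that no longer passed in one of these fits is given with its value.

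**Figure D2:**
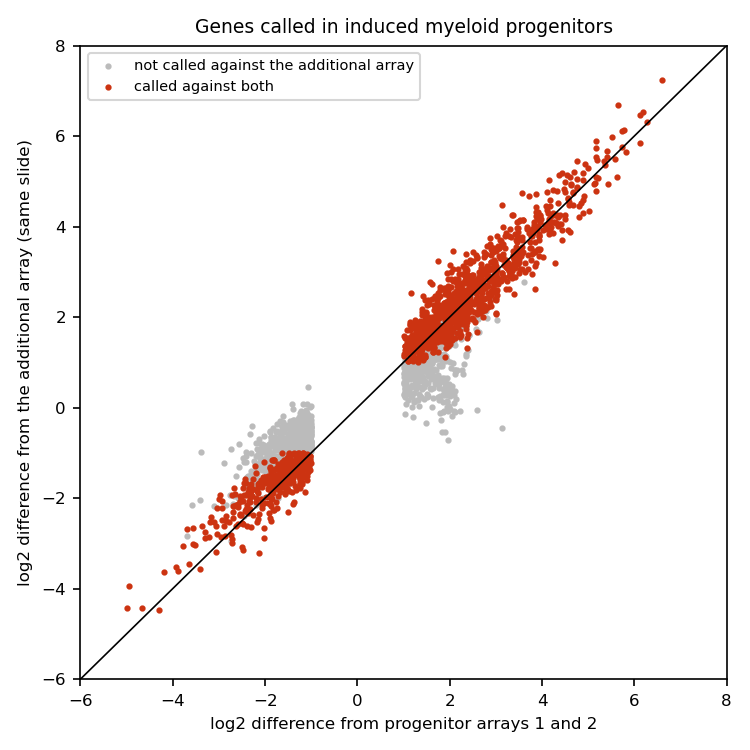
Log2 difference of induced myeloid progenitors from the additional progenitor array on the same slide (y axis) against that from progenitor arrays 1 and 2 (x axis), 1 point per gene, for the genes that passed the threshold on the x axis. Both axes share the induced arrays; the points lie near the diagonal, and the grey ones, which did not pass against the additional array, lie nearer 0 on the y axis, most of them among the falls.

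Runx1t1, the mouse gene for ETO, was at a log2 level of 7.92 and 7.50 on the progenitor arrays and 7.86 on the additional array. It was at 9.28, 10.22 and 10.52 on the uninduced and 11.93, 12.13 and 12.12 on the induced myeloid arrays. The 3 groups did not overlap, and the probe was brighter in myeloid progenitors before any Dox was added. The log2 difference was 4.35 (SE 0.374, adjusted P = 1.14e-07 from limma) between induced myeloid progenitors and progenitors, 2.30 (adjusted P = 0.000172) without Dox and 2.06 (adjusted P = 0.000308) with Dox. Whether this mouse probe detects the human transgene was not tested. Runx1 itself was at 14.21 and 14.19 in progenitors, 13.59 on the additional array, 12.70, 12.18 and 12.59 without and 12.41, 12.64 and 11.84 with Dox. It was lower in both myeloid groups, by -1.90 (SE 0.397, adjusted P = 0.00101) with Dox. The difference was -1.29 from the additional array (adjusted P = 0.0831) and -1.32 with the slide as a block, neither of which passed.

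Of the surface markers used in the sort of the progenitors, Kit, the stem cell factor receptor, was at 13.37 and 14.06 in progenitors, 11.56, 10.96 and 10.78 in uninduced and 12.46, 11.85 and 12.04 in induced myeloid progenitors. The induced arrays lay between the others, with a log2 difference from progenitors of -1.60 (SE 0.336, adjusted P = 0.0011) that was -0.86 against the additional array at 12.98 and -0.90 with the slide as a block, and passed in neither. The rise of Kit with Dox did not pass the threshold either. Tek, which encodes the endothelial receptor Tie2, was at 8.71 and 8.63 in progenitors, 9.49 on the additional array, 9.01, 9.63 and 8.96 without and 12.58, 11.97 and 12.27 with Dox. It was thus higher on each induced array than on all others, by 3.60 against progenitors (SE 0.802, adjusted P = 0.0017) and 3.07 with Dox (adjusted P = 0.00679), although progenitors had been sorted as Tie2−. Against the additional array the difference was 2.78 (adjusted P = 0.0633), and with the slide as a block 3.33, and neither passed. Itga2b, which encodes CD41, did not pass in any of the 3 comparisons, at 1.74 (adjusted P = 0.0668) against progenitors and -0.37 with the slide as a block.

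The largest rises and falls were chosen among genes whose induced and progenitor arrays did not overlap, so that this separation is not a result. The largest rises fell into those already present without Dox and those that came with it. Ctss, a lysosomal protease of macrophages, was at 5.68 and 4.99 in progenitors, 5.30 on the additional array, 11.34, 12.44 and 11.14 without and 11.49, 11.14 and 12.19 with Dox, and the myeloid groups overlapped. Its difference from progenitors was 6.27 (SE 0.32, adjusted P = 6.52e-10) with a change with Dox of -0.04. The same held for genes of red cells, Slc4a1, the anion exchanger of their membrane (6.19 against progenitors, -0.31 with Dox), and Hbb-y, an embryonic globin (5.57 and -0.11). Ifi27l2a, an interferon-induced gene (5.73 and 0.67), and Emp1, a membrane protein (5.64 and 0.52), also lay apart from progenitors without Dox, by 5.06 and 5.12. On progenitor array 1, Emp1 was at 8.06, compared with 6.17 on array 2 and 6.07 on the additional array.

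Other genes among the largest rises had no difference past the threshold between uninduced myeloid progenitors and progenitors. Ptprr, a receptor-type phosphatase that acts on MAP kinases, was at 5.30 and 4.99 in progenitors, 4.78 on the additional array, 4.98, 5.27 and 5.22 without and 11.46, 10.58 and 10.71 with Dox. Its spots were not well above background on any progenitor or uninduced myeloid array, so that induced myeloid progenitors were at least 54.7-fold higher than progenitors (log2 difference 5.77, SE 0.296, adjusted P = 6.52e-10). Pnoc, the precursor of the neuropeptide nociceptin, was at 5.68 and 5.22, 5.08 on the additional array, 5.26, 5.63 and 5.78 without and 11.27, 11.20 and 11.09 with Dox, a difference of 5.74 from progenitors (SE 0.315, adjusted P = 9.34e-10). Ptprb, the vascular endothelial phosphatase VE-PTP, was at 8.49 and 8.35 in progenitors, 8.69 on the additional array, 8.70, 9.996 and 9.47 without and 14.78, 14.43 and 14.42 with Dox, a difference of 6.12 (SE 0.312, adjusted P = 6.52e-10). In each of these genes the 3 induced arrays stood apart from the 6 others.

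Further genes rose in both steps. Mt2, a metallothionein, which binds zinc, was at 10.54 and 9.81 in progenitors, 9.82 on the additional array, 12.80, 12.88 and 12.94 without and 15.79, 16.60 and 16.47 with Dox, and the groups did not overlap. It differed from progenitors by 6.11 (2.70 without Dox and 3.41 with Dox) and Pcdh17, a protocadherin, by 5.62 (2.74 and 2.87). Alox12, the lipoxygenase of platelets, differed by 5.82, with 4.68 without Dox, and its change with Dox of 1.14 (adjusted P = 0.0191) did not pass. These 3 genes, and the others given among the largest rises, also passed against the additional array, and with the slide as a block.

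**Figure D3:**
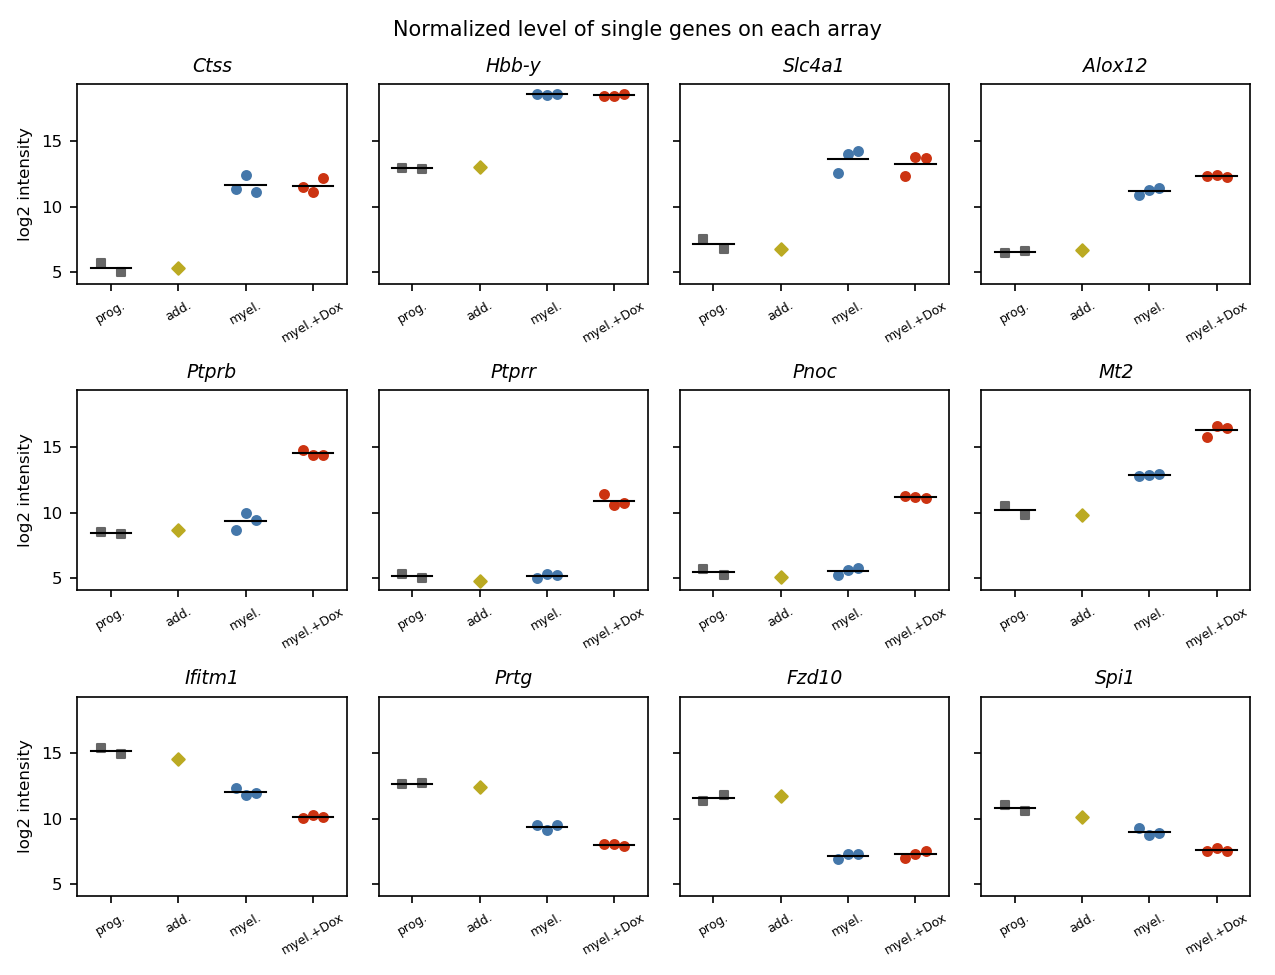
Log2 intensity of 12 genes on each array (y axis): progenitor arrays 1 and 2 (squares), the additional array (diamond) and 3 uninduced and 3 induced myeloid progenitor arrays (circles), with a line at the mean of a group. The top row shows genes that rose without Dox, Ptprb, Ptprr and Pnoc in the middle row were high on induced arrays only, and Ifitm1, Prtg and Spi1 were lowest there.

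The largest falls were mostly complete without Dox. Fzd10, a Wnt receptor, was at 11.36 and 11.79 in progenitors, 11.74 on the additional array, 6.92, 7.30 and 7.30 without and 6.99, 7.29 and 7.54 with Dox, a difference of -4.30 (SE 0.275, adjusted P = 3.83e-09) with 0.10 for Dox. Scd1, the desaturase that makes monounsaturated fatty acids, differed by -4.18 (0.01 with Dox). Serpinf1 (-3.77), which encodes the secreted factor PEDF, Clec4g (-3.94), a lectin, Nap1l2 (-3.89), a nucleosome assembly protein, and Ptgis (-3.66), prostacyclin synthase, also had changes with Dox, of -0.54 to 0.44, that did not pass. Osgin1, Ambp and Tagln, the last a smooth muscle protein, fell by 3.69, 3.68 and 3.57. Their differences were -2.67, -2.85 and -2.15 against the additional array, where Ambp and Tagln did not pass, and -2.29, -2.01 and -2.24 with the slide as a block, where none of the 3 passed.

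A few falls went on with Dox. Ifitm1, an interferon-induced membrane protein of early embryonic cells, was at 15.37 and 14.92 in progenitors, 14.59 on the additional array, 12.33, 11.82 and 11.95 without and 10.03, 10.30 and 10.14 with Dox, and the groups did not overlap. It was the largest fall, at -4.99 (SE 0.369, adjusted P = 2.2e-08), of which -1.88 was the change with Dox (adjusted P = 0.00064). Prtg, protogenin, a surface protein of the early embryo, differed by -4.67 (SE 0.241, adjusted P = 6.52e-10) and fell by 1.36 with Dox (adjusted P = 0.000232). Gpr84, a receptor for fatty acids, differed by -4.96 and was -1.47 with Dox, which did not pass (adjusted P = 0.0258).

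The counts of each list are to be read beside the shares over all genes, which were 10.3% higher and 8.26% lower against progenitors. The shares were 7% and 6.93% without Dox, and 5.13% and 1.18% with Dox. Of the lists examined, the endothelial genes were the one in which induced and uninduced myeloid progenitors stood furthest apart. Of 30 endothelial genes tested, 18 were higher and 1 lower in induced myeloid progenitors than in progenitors, with a median log2 difference of 1.87, compared with -0.09 over all genes. Without Dox, 2 were higher and 3 lower (median 0.01), and with Dox 23 rose and none fell (median 2.18, compared with -0.02 over all genes). Against the additional array 15 were higher and 1 lower, and with the slide as a block 13 and 1. The log2 sum of their intensities was 16.7 to 16.8 in progenitors, 16.8 on the additional array, 16.3 to 16.7 without and 18.8 to 19.2 with Dox. In these bulk samples, more cells of a type and more RNA per cell cannot be told apart, and the part of any endothelial cells in the culture was not tested.

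Ramp2, a partner of the adrenomedullin receptor, was at 12.45 and 12.71 in progenitors, 12.01 on the additional array, 11.12, 12.20 and 11.58 without and 16.65, 16.51 and 16.17 with Dox. It lay 3.86 above progenitors (SE 0.263, adjusted P = 7.67e-09). Stab1, the scavenger receptor stabilin-1, was higher by 5.37, Icam2, an adhesion molecule, by 4.13 and Sox17, an endothelial transcription factor, by 4.17 (SE 0.336, adjusted P = 5.74e-08). Sox17 was at 6.89 and 6.94 in progenitors, 7.86, 8.84 and 8.31 without and 11.52, 11.02 and 10.73 with Dox. In these 4 genes, which are among those of smallest P, the induced cells were above both other groups.

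Other members of the list rose with Dox to a level not past the threshold from progenitors, or stayed low. Of them, 3 are given although they were chosen after their values were seen. Cdh5, VE-cadherin of endothelial junctions, was at 12.58 on both progenitor arrays, 11.67 on the additional array, 9.76, 11.01 and 10.26 without and 12.24, 11.79 and 12.07 with Dox. It was -2.24 below progenitors without Dox (adjusted P = 1.4e-05). That fall was -1.33 from the additional array and -1.41 with the slide as a block, where it did not pass. Cdh5 rose by 1.69 with Dox (adjusted P = 0.000145). The difference of -0.54 that was left did not pass (adjusted P = 0.14) and was 0.36 from the additional array and 0.28 with the slide as a block. Eng, endoglin, a co-receptor for TGF-β, was likewise at -2.40 without Dox (adjusted P = 0.00453) and 0.54 with Dox, which did not pass. The 1 lower gene was Etv2, an ETS factor of early endothelial and blood precursors, at -2.55 with Dox and -2.19 without. The 11 genes that did not pass against progenitors, Cdh5 and Eng among them, are neither shown to differ from progenitors nor to be at their level.

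Genes of red cells and platelets separated both myeloid groups from progenitors, in cells labelled as myeloid. Of 22 erythroid genes, 18 were higher and none lower in induced myeloid progenitors than in progenitors (median 2.67), and 20 and none without Dox (median 3.08). Hbb-y was at 12.96 and 12.91 in progenitors, 13.01 on the additional array, 18.65, 18.55 and 18.65 without and 18.48, 18.45 and 18.60 with Dox. The adult beta globins Hbb-bs (3.95) and Hbb-bt (4.76) have near-identical sequences, so that their probes may share signal. With Dox, 1 erythroid gene rose and 2 fell.

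Of 22 megakaryocyte and platelet genes, 11 were higher and 1 lower (median 1.53), compared with 13 and 1 without Dox (median 2.87), and with Dox 1 rose and 7 fell. Clec1b, the platelet receptor CLEC-2 (4.42), Gp5, a subunit of the receptor for von Willebrand factor (3.82), and Thbs1, thrombospondin (3.68), were higher in induced myeloid progenitors with no change past the threshold with Dox. Gp1bb, another subunit of that receptor, was at 8.33 and 8.17 in progenitors, 7.96 on the additional array, 12.02, 11.90 and 12.16 without and 10.57, 10.95 and 10.76 with Dox. It fell by 1.27 with Dox (adjusted P = 0.000347) and was still 2.51 above progenitors (SE 0.233, adjusted P = 2.73e-07).

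Monocyte and macrophage genes were higher as well, 16 of 26 with 1 lower (median 1.85), and 14 with 1 lower without Dox (median 1.86). Besides Ctss, these included Trem2, a receptor of macrophages (4.36), Aif1, a calcium-binding protein of macrophages (4.51), and C1qc, a chain of complement C1q (3.52). Gpnmb, a lysosomal membrane protein, was not well above background in progenitors and was at least 7.29-fold higher (log2 difference 2.88, adjusted P = 1.77e-06). Against the additional array 13 were higher and none lower.

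By contrast, the factors that direct myeloid differentiation were higher in part and lower in part. Spi1, which encodes PU.1, was at 11.05 and 10.58 in progenitors, 10.14 on the additional array, 9.29, 8.77 and 8.94 without and 7.53, 7.75 and 7.56 with Dox. It was lowest on the induced arrays, by -3.20 against progenitors (SE 0.409, adjusted P = 9.67e-06) and -2.53 against the additional array (adjusted P = 0.00179). Its difference of -1.39 with Dox did not pass (adjusted P = 0.0151), nor did that of -2.25 with the slide as a block.

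Cebpb was lower by -2.84 (SE 0.479, adjusted P = 0.000154; -2.16 against the additional array and -1.65 with the slide as a block, neither of which passed), and Cebpe, needed for late granulocytes, by -2.89 (SE 0.23, adjusted P = 5.3e-08). Cebpa was at 8.82 and 8.38 in progenitors and 7.37, 7.30 and 7.47 in induced cells, a difference of -1.22 that did not pass (adjusted P = 0.0378). Irf8, a factor of monocytes, was higher (1.26). Irf8 was at 9.70 and 9.998 in progenitors, 12.51, 12.06 and 11.63 without and 11.02, 10.97 and 11.33 with Dox, and passed neither against the additional array (0.95) nor with slide as a block (1.57). Of the 17 myeloid factors tested, 6 were higher and 6 lower (median -1.19), and none passed with Dox. With the additional array in place of arrays 1 and 2, 4 were higher and 3 lower (median -0.38), and with the slide as a block 1 and 1 (median 0.01).

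Of 18 neutrophil granule genes, 2 were higher and 5 lower (median -0.87). Fitted with the slide as a block, 2 were higher and 1 lower (median -0.84), and against the additional array the median was -0.71. Mpo, myeloperoxidase, was at 14.79 and 15.15 in progenitors, 15.26 on the additional array, 13.85, 12.70 and 12.78 without and 12.96, 11.92 and 11.89 with Dox, a difference of -2.72 (SE 0.406, adjusted P = 4.9e-05) that was -2.97 with the slide as a block, where it did not pass. Prtn3, proteinase 3, was lower by -2.72 and Ms4a3, a membrane protein of granulocyte precursors, by -3.16 (-2.17 with the slide as a block, which did not pass). Serpinb1a, an inhibitor of neutrophil proteases, was higher by 4.10, of which 3.86 came with Dox. Of 19 myeloid receptors and adhesion genes, 6 were higher and 5 lower, and with Dox none rose and 6 fell. The counts were 4 and 2 against the additional array, and with the slide as a block 3 and none. Among those of smallest P, Csf2rb2, the receptor chain that serves interleukin-3 (3.36), Itgax, which encodes CD11c (1.48), and Ccr2, a chemokine receptor of monocytes (1.68), were higher. Cd33, a sialic acid-binding receptor, was lower by -1.67 (SE 0.235, adjusted P = 2.69e-05), which was -0.76 with the slide as a block and did not pass there. With Dox, Itgax fell by 1.32 and Ccr2 fell by 1.17, towards the level of progenitors.

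Of 11 mast cell and basophil genes, 3 rose and 2 fell with Dox. Hdc, which makes histamine, was at 9.78 and 8.54 in progenitors, 8.68 on the additional array, 8.92, 8.12 and 7.99 without and 14.94, 13.26 and 13.11 with Dox, a difference of 4.61 from progenitors (SE 0.48, adjusted P = 1.03e-06). Il1rl1, the receptor for interleukin-33, differed by 4.57 and Cpa3, carboxypeptidase A3, by 2.56. The induced array 1 was the highest for all 3 genes, at 14.94, 13.92 and 11.51, yet the induced arrays did not overlap with the others. Gzmb, granzyme B, went the other way. It was at 5.80 and 5.28 in progenitors, 5.30 on the additional array, 9.85, 9.13 and 9.19 without and 7.35, 7.49 and 7.11 with Dox, which is 1.78 above progenitors (SE 0.229, adjusted P = 1.08e-05) and 1.17 with the slide as a block, where it did not pass. With Dox, Gzmb fell by 2.07. The other gene that fell, Ccl3, a chemokine, fell by 1.40 with Dox (adjusted P = 0.00555), and its -1.24 from progenitors did not pass. Of the list, 5 were higher and none lower than in progenitors (median 1.48).

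The promoters of these genes are shown because the RUNX motif TGTGGT, searched on both strands, which RUNX1-ETO shares with RUNX1, was in 7 of the 15 promoters of the mast cell and basophil list. It was in only 1 of 18 promoters of the endothelial list, which rose most with Dox, and in 2 of 18 of interferon-stimulated genes. The 15 promoters belong to 14 genes of the mast cell and basophil list, more than the 11 tested, so that some are of genes not tested here. The sequences are from RefSeq on GRCm38.p6 and cover the 250 bases before the start of the gene, read 5′ to 3′ on its strand. They are chr1:40439379-40439628, + strand, for Il1rl1 (the one with a match of 2 listed), chr3:20242182-20242431, - strand, for Cpa3, and chr14:56262335-56262584, - strand, for Gzmb, with the motif on either strand in capitals.
Il1rl1: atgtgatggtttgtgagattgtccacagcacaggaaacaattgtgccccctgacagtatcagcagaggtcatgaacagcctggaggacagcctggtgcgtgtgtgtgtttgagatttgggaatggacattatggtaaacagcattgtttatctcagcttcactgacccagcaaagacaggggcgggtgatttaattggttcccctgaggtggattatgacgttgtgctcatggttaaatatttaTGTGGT
Cpa3: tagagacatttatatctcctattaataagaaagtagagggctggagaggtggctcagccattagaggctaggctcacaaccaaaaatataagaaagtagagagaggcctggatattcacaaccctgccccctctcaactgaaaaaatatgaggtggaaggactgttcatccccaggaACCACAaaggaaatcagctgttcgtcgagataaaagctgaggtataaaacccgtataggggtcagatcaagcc
Gzmb: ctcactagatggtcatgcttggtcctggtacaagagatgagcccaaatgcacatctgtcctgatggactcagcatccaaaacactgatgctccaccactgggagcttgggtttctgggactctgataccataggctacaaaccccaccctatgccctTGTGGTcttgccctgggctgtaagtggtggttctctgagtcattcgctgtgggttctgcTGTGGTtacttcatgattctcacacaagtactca
The motif lay 6 bases before the start in Il1rl1, 73 in Cpa3, and 93 and 34 in Gzmb, so that it was found in genes that changed with Dox in opposite directions. It was in 14.05% of all 32851 promoters of the table and in 11.1% of the 15221 promoters of genes tested. Among genes called higher and lower in induced myeloid progenitors it was in 12.2% and 10.9% of promoters, and among those that rose and fell with Dox in 10.9% and 19.3% (35 of 181). These are counts of letters in a window and not of bound sites.

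Interferon-stimulated genes were higher in 18 of 20 and lower in none (median 3.07), and in 16 without Dox (median 2.35). With Dox, 4 rose further. Ifit1, which binds viral RNA, was at 7.19 and 6.96 in progenitors, 7.66 on the additional array, 9.16, 10.44 and 10.20 without and 11.80, 11.77 and 12.04 with Dox, a difference of 4.80 from progenitors (SE 0.292, adjusted P = 2.3e-09) and of 1.93 with Dox (adjusted P = 4.64e-05). Isg15, a ubiquitin-like protein, differed by 4.43 and Oas1a, a sensor of double-stranded RNA, by 4.88, and their changes with Dox of 0.80 and 0.85 did not pass. Against the additional array 15 were higher, and with the slide as a block 16. Oas1a belongs to a family of near-identical genes that can share signal.

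The response element of these genes, searched as the letters GAAA, any 2 bases and GAAA again on both strands, and bound by STAT and IRF factors after interferon, was in 8 of their 18 listed promoters and in 2.98% of all promoters. The 250 bases before the start are printed for Ifit1 (chr19:34640639-34640888, + strand), Isg15 (chr4:156200819-156201068, - strand) and Oas1a (chr5:120907526-120907775, - strand), with the element on either strand in capitals, overlapping matches joined.
Ifit1: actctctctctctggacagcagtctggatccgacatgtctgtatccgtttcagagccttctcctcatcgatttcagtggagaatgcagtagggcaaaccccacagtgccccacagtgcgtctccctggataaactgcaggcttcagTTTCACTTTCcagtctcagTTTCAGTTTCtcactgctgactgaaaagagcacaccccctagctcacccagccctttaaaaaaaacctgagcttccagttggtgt
Isg15: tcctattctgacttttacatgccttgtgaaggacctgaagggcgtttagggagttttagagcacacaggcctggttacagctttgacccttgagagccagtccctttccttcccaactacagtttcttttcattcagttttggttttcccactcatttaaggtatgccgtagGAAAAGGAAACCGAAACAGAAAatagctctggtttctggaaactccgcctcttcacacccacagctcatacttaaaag
Oas1a: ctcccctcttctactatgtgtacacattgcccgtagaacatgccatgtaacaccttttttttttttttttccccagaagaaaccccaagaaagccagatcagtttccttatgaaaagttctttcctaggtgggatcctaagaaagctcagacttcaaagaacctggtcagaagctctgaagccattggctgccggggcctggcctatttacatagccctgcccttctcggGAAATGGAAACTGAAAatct
The element had 2 matches in Ifit1, 104 and 85 bases before the start, and within 78 bases of the start in Isg15 and 20 in Oas1a.

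**Figure D4:**
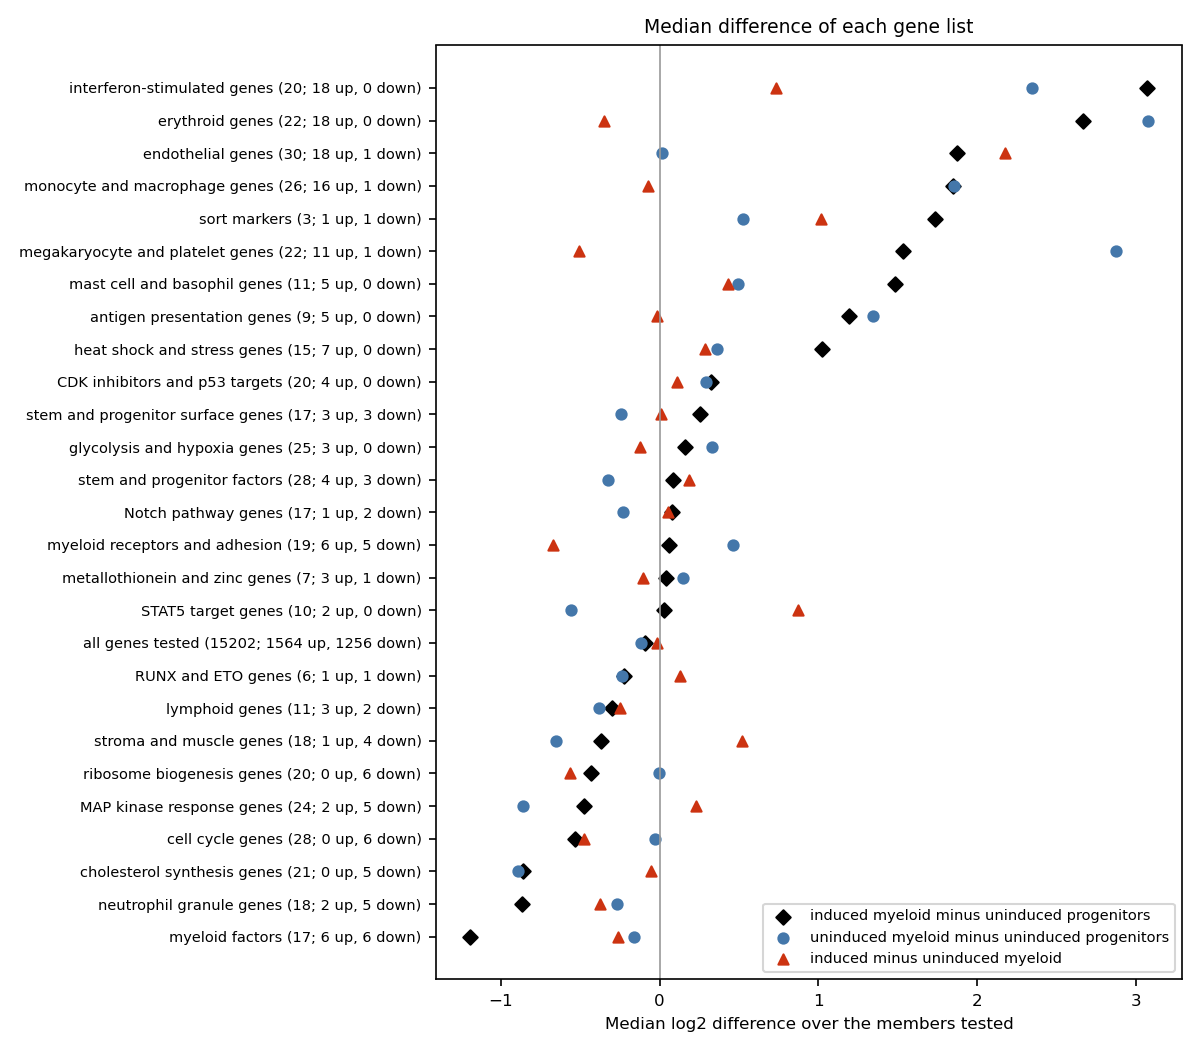
Median log2 difference (x axis) over the tested members of each gene list (y axis, with the number tested and those higher and lower in induced myeloid progenitors than in progenitors) for 3 comparisons that share arrays. For endothelial genes the black diamond (1.87) lies by the red triangle, the change with Dox (2.18), whereas for monocyte and macrophage genes it lies by the blue circle, the difference without Dox.

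Whether Dox moved genes towards the level of progenitors was then read gene by gene. Of 778 genes that rose with Dox and were measured on all arrays used, progenitors lay nearer the induced than the uninduced myeloid level, that is above the midpoint of both means, in 208 (26.7%). Over all genes, progenitors lay above this midpoint in 55.1%. On the additional array, the count was 177 (22.8%). Of 178 genes that fell with Dox, progenitors lay nearer the induced level, that is below the midpoint, in 104 (58.4%), compared with 44.9% over all genes. On the additional array it was 105 (59.0%), and with 75th percentile scaling 50.7% of the genes that fell, compared with 35.9% of all genes, and 29.0% of those that rose, compared with 64.1%. For most genes that rose, the uninduced myeloid level was therefore the one nearer to progenitors. The genes were chosen on the same myeloid arrays that set the midpoint, and this count was added after seeing the data, so that it is given with no test.

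The genes that moved back most, chosen for passing in both steps in opposite directions, were low in uninduced myeloid progenitors only, and many overshot. Has2, which makes hyaluronan, was at 9.25 and 9.41 in progenitors, 9.19 on the additional array, 6.78, 7.38 and 7.02 without and 12.27, 11.20 and 11.50 with Dox. Its log2 difference from progenitors was -2.27 (adjusted P = 3.38e-05) without Dox and 2.32 (SE 0.316, adjusted P = 1.92e-05) with Dox, so that it passed the progenitor level by about as much as it had been below it. Gad2, which makes the transmitter GABA (-1.06 and 3.37), Crb2, a polarity protein (-2.24 and 1.87), Rprm, reprimo, which arrests the cell cycle (-1.82 and 1.81), and Sgpp1, a phosphatase of sphingosine-1-phosphate (-1.20 and 2.39), likewise ended above progenitors. Of these, Rprm did not pass against the additional array (1.67), and Has2, Crb2 and Rprm did not pass with the slide as a block (2.47, 1.48 and 2.18).

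Rspo3, Etl4 and Fam222a came back to within the threshold. Rspo3, an enhancer of Wnt signals, was at 10.60 and 10.08 in progenitors, 10.06 on the additional array, 7.08, 8.58 and 7.95 without and 11.19, 11.32 and 11.44 with Dox, and the difference of 0.98 from progenitors did not pass (adjusted P = 0.056). For Etl4 it was 0.74 and for Fam222a 0.88, and in all 3 genes the induced arrays still lay above progenitor arrays 1 and 2. Erg, an ETS factor of stem cells and endothelium, was at 9.47 and 9.89 in progenitors, 10.23 on the additional array, 6.94, 7.51 and 7.46 without and 9.29, 9.74 and 9.13 with Dox. Its induced and progenitor arrays overlapped, with a difference of -0.30 (SE 0.346, adjusted P = 0.53), after -2.38 without Dox (adjusted P = 6.77e-05) and 2.08 with Dox (adjusted P = 0.000155). Jag1, a Notch ligand, was at -2.38 without Dox and rose by 1.38 with Dox (adjusted P = 0.0023) and stayed below progenitors by a difference that did not pass (adjusted P = 0.0171).

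The genes that moved further away included Stab1, at 7.71 and 7.16 in progenitors, 7.43 on the additional array, 9.27, 9.48 and 8.56 without and 13.16, 12.65 and 12.60 with Dox. It was 1.66 above progenitors without Dox (adjusted P = 0.00166) and 5.37 with Dox (SE 0.355, adjusted P = 5.3e-09). Nefl, a neurofilament (2.05 and 5.51), Bcl6b, a repressor found in endothelium (2.25 and 5.43), Nfil3, a leucine zipper factor (1.45 and 4.40), Nts, neurotensin (2.27 and 5.19), and Kctd12b (2.03 and 4.85) followed the same order. For these 6 genes each induced array was above each uninduced myeloid array, and these above both progenitor arrays. They were chosen for passing in both steps in the same direction, so that this order follows largely from the choice. All of them also passed against the additional array and with the slide as a block.

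**Figure D5:**
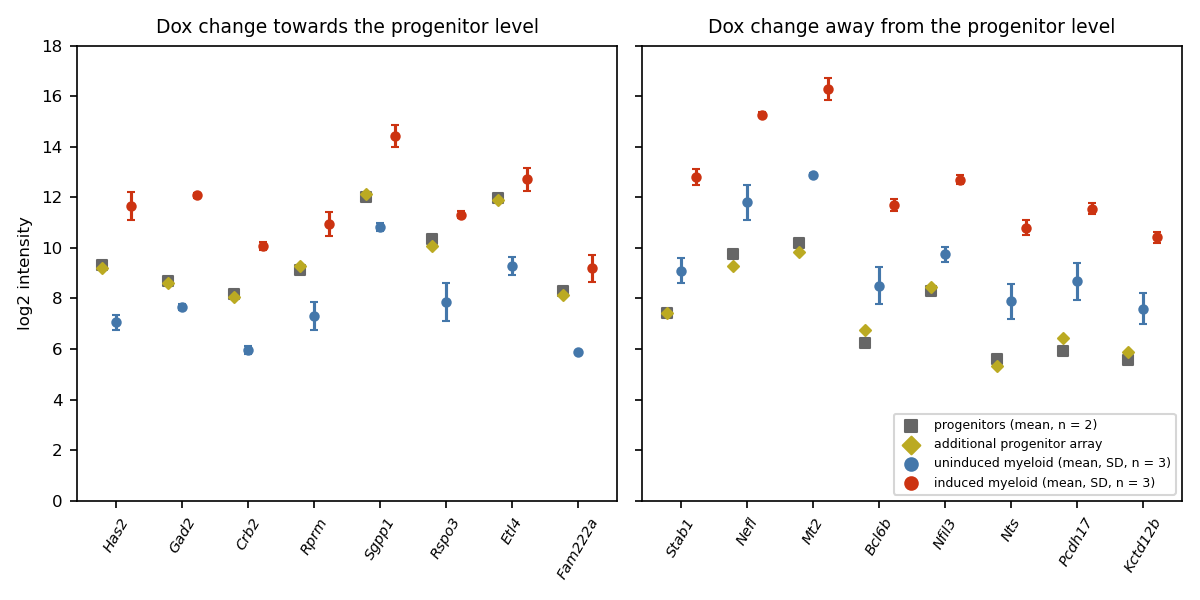
Log2 intensity (y axis) of the 8 genes with the largest change with Dox towards (left) and away from (right) the progenitor level: mean of progenitor arrays 1 and 2 (squares), the additional array (diamonds), and mean and SD of 3 uninduced and 3 induced myeloid progenitor arrays (circles). On the left, 5 of 8 genes ended past the threshold above progenitors, by 1.81 (Rprm) to 3.37 (Gad2).

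Among other factors of stem cells and progenitors, Fli1 was higher than in progenitors by 2.15 (SE 0.218, adjusted P = 7.62e-07; 1.45 with the slide as a block, which did not pass), and Meis1 by 1.76 (SE 0.344, adjusted P = 0.000579; 1.22 against the additional array and 1.03 with the slide as a block, neither of which passed). Gfi1, a repressor that acts in the step from endothelium to blood, was at 9.71 and 9.03 in progenitors, 9.54 on the additional array, 8.57, 9.57 and 9.29 without and 13.47, 11.80 and 11.83 with Dox, with a difference of 3.00 (SE 0.457, adjusted P = 5.89e-05) that was 2.66 with the slide as a block and did not pass there. Ikzf1, a factor of lymphoid and myeloid cells, was lower by -2.70 (SE 0.291, adjusted P = 1.52e-06) and fell by 1.52 with Dox, and its -1.32 with the slide as a block did not pass. Neither Fli1, Gfi1 nor Ikzf1 lay nearer progenitors with Dox. Nfe2, a factor of platelets and red cells, was at 15.21 and 15.31 in progenitors and 15.14, 15.22 and 15.28 in induced cells (-0.05). Of the 28 factors on the list, 4 were higher and 3 lower than in progenitors (median 0.08, and -0.20 with 75th percentile scaling), and with Dox 7 rose and 1 fell. Over all genes, 10.3% were higher and 8.26% lower than in progenitors, so that the first 2 counts are near those shares. The counts were 3 and 1 against the additional array, and with the slide as a block none passed in either direction.

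Immediate early genes, which follow MAP kinase signals within minutes, varied between arrays of a group. Fos was at 11.80 and 11.10 in progenitors, 10.85 on the additional array, 8.19, 8.81 and 10.28 without and 8.05, 11.46 and 8.47 with Dox, and Fosb at 12.53 and 10.82, then 9.52, then 6.49, 6.59 and 9.11, and 6.42, 11.01 and 6.46. Induced array 2 and uninduced array 3 were the highest of their groups for both genes, and the differences from progenitors of -2.12 and -3.71 did not pass (adjusted P = 0.0328 and 0.0128). Jund was lower by -1.90 (SE 0.332, adjusted P = 0.000255), yet the additional array was at 14.50, compared with 15.79 and 15.95, and against it the difference was -0.52 (adjusted P = 0.454), and -0.69 with the slide as a block. Of 24 genes of this list, 2 were higher and 5 lower (median -0.48), and with the slide as a block none and 1. Without Dox none were higher and 7 lower (median -0.86). With Dox 4 rose and none fell (median 0.23), compared with 5.13% and 1.18% of all genes. The log2 sum of the list was 17.3 on both progenitor arrays, 16.9 on the additional array, 15.8 to 16.1 without and 17.1 to 17.2 with Dox.

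Genes of growth were lower in part. Of 21 cholesterol synthesis genes, 5 were lower and none higher (median -0.86), with 6 lower without Dox and none changed with Dox, and 9 lower with 75th percentile scaling. Dhcr7, the last enzyme of the pathway, was lower by -2.68 (SE 0.21, adjusted P = 4.29e-08), Fdps, which makes farnesyl diphosphate, by -1.44 and Hmgcs1, the synthase that supplies HMG-CoA, by -1.42. With the slide as a block Fdps (-1.21) and Hmgcs1 (-0.93) did not pass. Of 28 cell cycle genes 6 were lower (median -0.53) and of 20 ribosome biogenesis genes 6 (median -0.43), compared with 1 and none without Dox. The change with Dox itself passed in 1 cell cycle gene, which fell, and in no ribosome biogenesis gene. With 75th percentile scaling 11 and 8 were lower (medians -1.11 and -0.96), and with the slide as a block 3 and 1. Of all genes, 1895 of 15612 were lower with that scaling (median -0.35), and 192 of 15202 with the slide as a block. No gene of these lists was higher in induced myeloid progenitors. The ribosome biogenesis genes named by the rule, Utp20, Gar1, Bop1, Rrp9 and Nolc1, were lower by -1.22 to -1.56, and by -0.56 to -1.07 against the additional array, where none of the 5 passed, nor did any with the slide as a block, at -0.31 (Nolc1) to -1.08 (Rrp9).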

How the data were processed

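RNA of 23 arrays was labelled with Cy3 and hybridised to 1-colour Agilent mouse arrays. The authors deposited spot intensities from Feature Extraction (10.7.3.1 in the file headers, 10.7.1.1 in the submitters' processing notes), median signal and local background, not normalized. The authors also deposited a table of log2 values, processed with limma per the submitters' notes, which served only as an alternative. No columns of other samples were present (0 left out).

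Intensities were background-corrected with normexp (offset 16), quantile-normalized between arrays and taken to log2 in R 4.3.3 with limma 3.58.1. Of 62976 spots, 3671 controls and spots flagged as outliers were left out. A gene was represented by its probe of highest mean (20145 genes named), and 15202 genes at log2 6.5 or above on any array were tested. The fit held 22 arrays of all groups, without the additional array (14 residual degrees of freedom), with lmFit and eBayes and Benjamini-Hochberg adjustment over all genes. SE and adjusted P values of genes come from this fit, except those given against the additional array. These come from a fit in which that array replaced progenitor arrays 1 and 2, and its spread is assumed to be that of the other groups. Distances from progenitors and positions along the line were compared by exact permutation tests. Where labels do not say that samples came from separate cultures, P values measure only the spread between arrays, whose number limits the precision.

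Members and gene lists were chosen with earlier results of these data known. Named genes were the 12 largest rises and 12 largest falls past the threshold whose arrays did not overlap, the 8 largest changes with Dox towards and the 8 away from progenitors, up to 5 members of smallest P of each list, and genes the study names for these cells. Symbols that are clone names were left out, and some genes that the rule names are not reported here. Gene names come from RefSeq, matched to the transcript accessions of the array files, and 26582 of 55681 probes were named and used. Promoters come from RefSeq (GRCm38.p6) as well and were used for sequence only. Alternatives covered offset, background, normalization, filter, probes, threshold, batch, replicate block, arrays in the fit and each array left out. Counts of lists on the same slide or with the slide as a block, and the settings of the midpoint, were added after seeing the data. The fit was tested on simulated data.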

Additional observations from a re-analysis of the deposited data

How the results depend on the processing

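The counts of both differences from progenitors moved most with the batch for rises, and with the batch and the threshold for falls. For induced myeloid progenitors against progenitors, the slide as a block gave 565 genes higher and 192 lower, the scan date 574 and 211, and the additional array as the only progenitor array 469 lower. With the additional array added to arrays 1 and 2 and the slide as a block, 615 were lower. Lower genes numbered 1972 at 2-fold alone and 1895 with 75th percentile scaling. For uninduced myeloid progenitors the same settings gave 377 and 197 (slide), 373 and 209 (scan date), 702 and 385 (additional array alone) and 533 lower (added, with the slide), and 660 lower at an adjusted P of 0.001 and 1720 at 2-fold alone. With Dox the batch moved little (802 rises and 194 falls with the slide, 774 and 187 with the scan date), and falls were 80 at an adjusted P of 0.001, 303 at 2-fold alone and 116 without induced myeloid array 1. The cause was not tested.

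With 1 array left out at a time, 1121 to 1423 genes were higher and 866 to 1131 lower in induced myeloid progenitors than in progenitors, 731 to 986 and 711 to 892 in uninduced ones, and 629 to 768 rose and 116 to 193 fell with Dox. The distance difference was 15.2 to 18.4 and that of position -0.0866 to -0.0467. The replicate block gave 1540 and 1173, 1063 and 1004, and 790 and 192 genes. The deviations of samples of the same number had correlations of 0.21, -0.13 and -0.01 in the myeloid groups, and those of uninduced array 3 and induced array 2 had 0.26. So few arrays cannot tell whether any of them shared a culture, and they were fitted as unpaired.

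Over 157 named genes and 22 alternatives, 2989 differences kept their direction and side of the threshold, 238 fell short of it and 14 newly passed. Of the 238, 55 came with the slide as a block and 55 with the scan date as a block. Differences from progenitors that changed sign were those of Bcl2l1 (-0.073) and Cbfb (-0.30) with 75th percentile scaling, Cbfb (-0.047) with the additional array alone, Erg (0.19) with the mean of probes, and Itga2b with the slide (-0.37) and scan date (-0.52) as a block. Cdh5 turned to 0.28 and 0.23 with these blocks, 0.36 with the additional array alone and 0.34 with it added and the slide as a block. Nfe2 turned to 0.18 and 0.022 with these blocks, and 0.049 with the additional array added and the slide as a block, and was at -0.097 without progenitor array 1 and 0.0066 without array 2. Arrays give signal over background and not depth, and dim genes have only a bound.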

Other observations

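Genes of the cell stress response were higher in induced myeloid progenitors. Of 15 heat shock and stress genes tested, 7 were higher and none lower than in progenitors (median 1.02). With 75th percentile scaling 4 were higher (median 0.55). Without Dox 2 were higher, and the change with Dox itself passed in 2, which rose. Hspb1, a small heat shock protein, was at a log2 level of 11.16 and 10.42 in progenitors, 10.20 on the additional array, 9.57, 10.86 and 10.67 without and 13.41, 13.65 and 13.70 with Dox, and the induced arrays stood apart from the rest. Hspa1a, an inducible chaperone, was higher than on the additional array by 3.45 and rose by 2.59 with Dox. Trib3, a pseudokinase of the amino acid and endoplasmic reticulum stress response, differed by 4.38, and Asns, asparagine synthetase, by 2.01, of which 3.48 and 1.98 were present without Dox. Against the additional array 4 of the list were higher.

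The metallothioneins Mt1 (3.59) and Mt2 and the zinc exporter Slc30a1 (2.79) were higher, and 3 of 7 genes of zinc handling rose against 1 that fell. Slc39a10, a zinc importer, was lower by -1.40, but by -0.22 with the slide as a block and -0.03 against the additional array, which was at 9.95 where the progenitor arrays were at 11.25 and 11.39. Of 9 antigen presentation genes 5 were higher, with B2m, the light chain of class I molecules, at 2.08 and Cd74, the invariant chain of class II, at 2.36, and none passed the threshold with Dox.

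Of 11 lymphoid genes 3 were higher and 2 lower (median -0.30), and the falls, Tcf7 (-1.54) and Cd79b (-1.60), were -1.02 and -1.57 against the additional array, where neither passed. Blnk, an adaptor of B cell signalling, was at 6.24 and 6.41 in progenitors, 6.52 on the additional array, 11.21, 11.43 and 10.36 without and 10.48, 10.20 and 10.87 with Dox, a difference of 4.19 (SE 0.268, adjusted P = 3.83e-09). Of 18 stroma and muscle genes 1 was higher and 4 lower (median -0.37). Tnnt2, cardiac troponin T, was higher by 4.16, and Acta2, smooth muscle actin, lower by -2.70, which was -2.12 against the additional array and -1.58 with the slide as a block and passed in neither. Cd93, a surface protein of early haematopoietic and endothelial cells, was higher by 3.40.

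Of 17 surface genes of stem cells and progenitors, 3 were higher and 3 lower (median 0.25, and -0.29 with 75th percentile scaling). STAT5 targets were higher in 2 of 10 (median 0.03, and -0.29), led by Cish (2.99), a feedback inhibitor of cytokine signals. Of 17 Notch pathway genes 1 was higher and 2 lower (median 0.07, and -0.17), and of 25 glycolysis and hypoxia genes 3 were higher (median 0.16, and -0.45), among them Vegfa (1.66), the vascular growth factor. Of 20 CDK inhibitors and p53 targets 4 were higher and none lower (median 0.32, and 0.01), with Trp53inp1 at 1.92 and Gadd45a at 1.36. Over all genes, 10.3% were higher and 8.26% lower, and these small counts are not read as results about the lists.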
